A study of Homo sapiens with 20 samples.

Results

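The 9 genes described here encode the smooth muscle contractile apparatus that basal, or myoepithelial, cells of the breast share with smooth muscle. They are ACTA2, ACTG2, MYLK, MYL9, CNN1, TAGLN, TPM1, TPM2 and CALD1. They were listed by symbol as smooth muscle contractile genes, with earlier results of these data known. All 9 were found among the 18417 genes with a named transcript cluster, a cluster being the probes of 1 transcription unit. Each of the 9 had exactly 1 such cluster. The cells were B5/589, an immortalized human mammary epithelial line grown in culture with serum and epidermal growth factor. All groups, the uninduced one included, carry an inducible p53 transgene, which doxycycline switches on. There were 5 groups of 4 arrays. Uninduced cells (0 ng of doxycycline) were collected at 24 h, and cells on a 3 ng or a 5 ng dose were each collected at 12 h and at 24 h. The labels give the doses as ng without a volume, give no uninduced cells at 12 h, and do not say whether the cells are 1 clone or whether a group's 4 arrays hold separate cultures. The p-values therefore measure no more than the spread among these arrays, part or all of which may be technical.

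In smooth muscle and in myoepithelial cells, force comes from myosin pulling on actin filaments. Myosin light chain kinase (MYLK) phosphorylates the regulatory light chain (MYL9), which switches the motor on, while tropomyosin, caldesmon and calponin sit along the actin filament and regulate access to it. In the breast this apparatus lets the myoepithelial layer squeeze milk out of the alveoli. Many of its genes are controlled by serum response factor (SRF) with its myocardin family partners, through a DNA element called the CArG box. The series asks how cells choose between arrest and apoptosis when the transcription factor p53 is induced weakly or strongly, and the contractile genes are followed here over the same doses and times.

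The values are log2 signals, with an array median between 4.54 and 5.54, and the arrays of induced cells at 24 h were the dimmest on average: their medians averaged 4.85 (3 ng) and 4.80 (5 ng), beside 5.07 for uninduced cells. The median of all genes therefore shifted by -0.24 between 5 ng and 0 ng at 24 h on the deposited values and by 0.07 after quantile normalization, which gives every array the same distribution. Quantile-normalized values are given beside the deposited ones for the main results. CDKN1A, the p53 target that encodes the p21 inhibitor of the cell cycle, was higher than at 0 ng by 0.72 ± 0.14 at 3 ng and by 1.44 ± 0.14 at 5 ng after 24 h, each with its standard error over 4 arrays per group (limma with Benjamini-Hochberg, adjusted p = 0.000948 and 1.01e-07). The basal keratins KRT5 and KRT14 lay between 11.64 and 12.49 and between 10.98 and 11.79 on the 20 arrays, and the luminal keratin KRT8 between 12.28 and 13.05. Smooth muscle myosin heavy chain, MYH11, which defines differentiated smooth muscle, lay between 2.73 and 4.38. Thus the basal keratins were bright and so was a luminal one, and the defining smooth muscle myosin was below the array median on all 20 arrays. Level against level between genes is not compared further, since signals of different probes have no common scale.

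Promoter sequences are shown because the CArG box is the element most closely tied to these genes. RefSeq promoter windows (GRCh38.p14, 250 bases before and 50 after a start) matched 7 of the 9 members in 12 windows; MYL9 and TAGLN had no entry. The 250 bases before the start are printed for 3 windows, 5′ to 3′ on the gene's strand, with the matches in capitals. For ACTG2 and MYLK the capitals mark CArG boxes, and for ACTA2 they mark boxes in which 1 of the 6 inner bases is not A or T. The ACTA2 window, chr10:88952774-88953023 on the minus strand, is that of the downstream of its 2 starts. The MYLK window, chr3:123620549-123620798 on the minus strand, belongs to a start inside the gene near its 3′ end. It was the only MYLK window, so no start near the 5′ end of that gene was searched. Which MYLK transcripts the cluster reads was not tested. The ACTG2 window is chr2:73892758-73893007 on the plus strand.
ACTA2: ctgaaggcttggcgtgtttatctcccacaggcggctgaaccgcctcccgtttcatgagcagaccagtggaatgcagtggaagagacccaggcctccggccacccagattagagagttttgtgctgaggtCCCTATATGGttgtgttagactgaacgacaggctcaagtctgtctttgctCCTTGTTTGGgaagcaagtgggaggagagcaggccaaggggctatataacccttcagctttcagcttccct
MYLK: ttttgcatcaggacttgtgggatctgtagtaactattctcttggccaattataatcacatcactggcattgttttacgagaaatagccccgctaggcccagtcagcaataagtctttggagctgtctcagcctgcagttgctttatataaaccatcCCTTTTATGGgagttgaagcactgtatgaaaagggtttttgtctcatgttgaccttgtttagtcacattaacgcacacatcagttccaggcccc
ACTG2: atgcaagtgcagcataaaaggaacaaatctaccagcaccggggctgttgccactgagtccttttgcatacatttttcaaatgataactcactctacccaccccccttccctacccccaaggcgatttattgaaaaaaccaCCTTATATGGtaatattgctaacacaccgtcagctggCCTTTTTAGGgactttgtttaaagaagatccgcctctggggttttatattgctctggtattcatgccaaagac
The matches start at -121 and -71 in ACTA2, at -94 in MYLK and at -110 and -73 in ACTG2, counted from the transcription start. The CArG box, searched on both strands of each window by its usual consensus, was found in 1.29% of all 35116 promoter windows and the form with 1 differing inner base in 6.94%. The windows of CNN1, TPM1 and TPM2 held neither form. CALD1 held the form with 1 differing base once, at -26 in 1 of its 4 windows.

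The upstream start of ACTA2 lies inside FAS, the gene of a death receptor that is a known p53 target. For that reason 30 bases just downstream of that start, chr10:88991299-88991328 on the minus strand, are shown with a match to the p53 half-site in capitals.
ACTA2: tggcttgtcaGGGCTTGTCCaggagttccg
The match starts at base 20 of the transcript, and another lies at -219 in the same window. The p53 half-site consensus was found in 6.63% of all promoter windows. CALD1 was the only other matched member with the half-site, in 2 of its 4 windows. These matches are letters in a window and do not show binding.

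Of the 9 contractile genes, 2 rose and 1 fell when cells given 5 ng of doxycycline for 24 h were compared with uninduced cells. MYLK and ACTA2 rose and TPM2, the beta-tropomyosin gene, fell; ACTG2, MYL9, CNN1, TAGLN, TPM1 and CALD1 did not pass the test. Among all genes 4.52% rose and 23.5% fell, so a fall was far more common than a rise on the deposited scale. The arrays of both groups did not overlap for 3 members, against 31.9% of all genes. The median difference was -0.10 over the members and -0.24 over all genes. After quantile normalization MYLK, ACTA2 and CALD1 rose and TPM2 fell, against 20.6% of genes that rose and 17.2% that fell, and the medians were 0.17 and 0.07. At 3 ng against 0 ng at 24 h the called members were again MYLK and ACTA2 as rises and TPM2 as a fall, with 1.5% of all genes rising and 23% falling. After quantile normalization MYLK, ACTA2 and CALD1 rose at 3 ng, none fell, and 15.4% of all genes rose. Both comparisons share the uninduced arrays. In these bulk cultures a smaller share of cells making a transcript and less of it in each cell cannot be told apart.

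**Figure D1:**
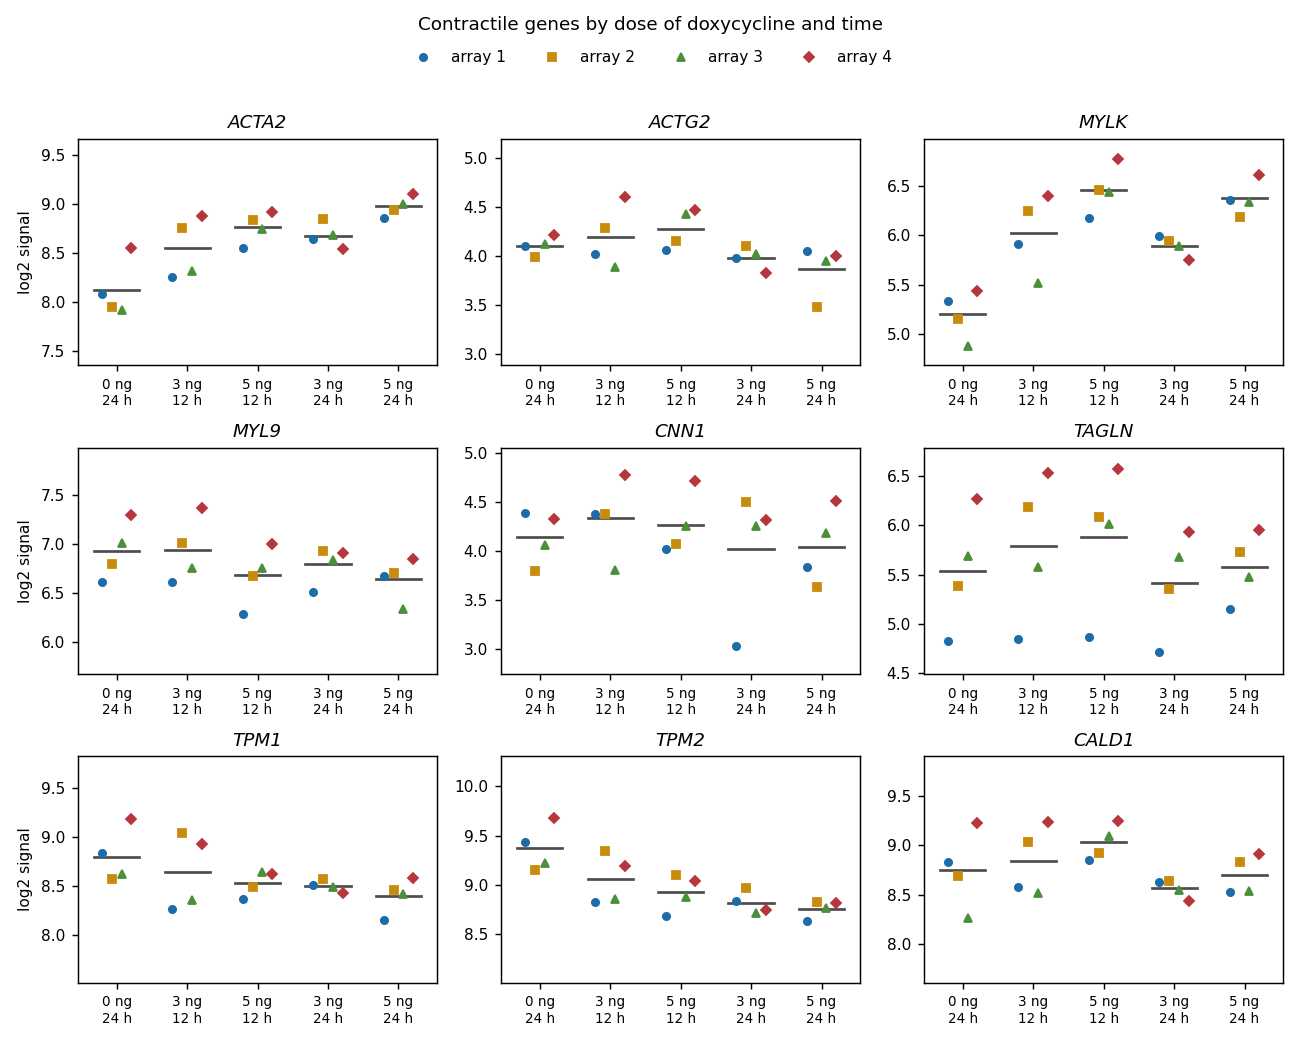
Log2 signal of the 9 contractile genes on 20 arrays, with 1 panel per gene, the 5 groups of dose and time on the horizontal axis, a symbol for each array number and a line at the group mean. All panels span the same number of log2 units. MYLK and ACTA2 are lowest at 0 ng and TPM2 is highest there, while the TAGLN symbols spread widely within every group.

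The kinase had the largest differences from uninduced cells among the 9 members as deposited. MYLK read 5.33, 5.15, 4.88 and 5.43 on the 4 uninduced arrays. It read 5.99, 5.94, 5.89 and 5.75 at 3 ng and 6.36, 6.19, 6.34 and 6.61 at 5 ng after 24 h. The uninduced arrays lay below every array of both doses, and the 3 ng arrays lay below every 5 ng array. The rise was 0.70 ± 0.18 at 3 ng (SE, n = 4 arrays in each group; limma with Benjamini-Hochberg, adjusted p = 0.00749) and 1.18 ± 0.18 at 5 ng (adjusted p = 3.76e-05), which is 2.26-fold. After quantile normalization these rises were 0.95 and 1.44.

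At 12 h MYLK was already high. It read 5.91, 6.25, 5.52 and 6.40 at 3 ng and 6.18, 6.46, 6.44 and 6.78 at 5 ng. Every one of these arrays was above the brightest uninduced array, and the arrays of both doses overlapped. Against the uninduced cells of 24 h, MYLK rose by 0.82 ± 0.18 at 3 ng (limma, adjusted p = 0.014) and by 1.27 ± 0.18 at 5 ng (adjusted p = 6.65e-05). The call at 3 ng and 12 h ended without the brightest array of that group, number 4, where the difference was 0.70 (limma, adjusted p = 0.0649), and when only the groups compared were fitted (0.82, adjusted p = 0.0945). In order of the group means MYLK stood at 5.20 (0 ng), 5.89 (3 ng, 24 h), 6.02 (3 ng, 12 h), 6.38 (5 ng, 24 h) and 6.46 (5 ng, 12 h). Neighbours at the same dose, 12 h and 24 h, did not pass the test, and 3 ng at 12 h against 5 ng at 24 h was not tested.

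The kinase's substrate did not pass in any of the 9 comparisons. MYL9, the regulatory light chain of smooth muscle myosin, lay between 6.61 and 7.30 on the uninduced arrays and between 6.34 and 6.85 at 5 ng and 24 h. These groups overlapped, with a difference of -0.29 ± 0.19 (95% interval -0.68 to 0.11) that became 0.08 after quantile normalization. Within each array, the MYLK log2 signal minus that of MYL9 was between -2.13 and -1.28 in uninduced cells, between -1.16 and -0.52 at 3 ng and between -0.52 and 0 at 5 ng after 24 h. This within-array difference, in which a shift common to both genes cancels, thus moved by 0.83 at 3 ng and by 1.46 at 5 ng, and the 0 ng and 5 ng arrays did not overlap.

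Among the actins, ACTA2 moved and ACTG2 did not pass. ACTA2, smooth muscle alpha-actin and the classical myoepithelial marker, read 8.08, 7.95, 7.92 and 8.55 on the uninduced arrays. It read 8.64, 8.85, 8.68 and 8.54 at 3 ng and 8.86, 8.94, 9.0 and 9.10 at 5 ng after 24 h. The 5 ng arrays were above all uninduced and all 3 ng arrays, while 1 array of 3 ng lay just below the brightest uninduced one. ACTA2 rose by 0.55 ± 0.16 at 3 ng (SE, n = 4 arrays in each group; limma with Benjamini-Hochberg, adjusted p = 0.0169) and by 0.85 ± 0.16 at 5 ng (adjusted p = 0.000424), or 1.8-fold. After quantile normalization the rises were 1.02 and 1.21. The call at 3 ng ended without uninduced array 2 (0.49, limma, adjusted p = 0.0507) or without 3 ng array 2 (0.50, adjusted p = 0.051).

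At 12 h ACTA2 read 8.26, 8.75, 8.32 and 8.88 with 3 ng and 8.55, 8.84, 8.74 and 8.92 with 5 ng. Both groups had arrays at or below the brightest uninduced array. Against the uninduced cells of 24 h, the difference at 3 ng was 0.43 ± 0.16 and did not pass (limma, adjusted p = 0.162), whereas it passed after quantile normalization (0.64, adjusted p = 4.28e-06). At 5 ng ACTA2 rose by 0.64 ± 0.16 (limma, adjusted p = 0.0114). The group means ran from 8.12 (0 ng) through 8.55 (3 ng, 12 h), 8.68 (3 ng, 24 h) and 8.76 (5 ng, 12 h) to 8.97 (5 ng, 24 h). As deposited, no tested neighbours in this order passed the threshold; 3 ng at 24 h against 5 ng at 12 h was not tested.

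ACTG2, smooth muscle gamma-actin, lay between 3.99 and 4.21 on the uninduced arrays and between 3.48 and 4.05 at 5 ng and 24 h. The difference was -0.23 ± 0.16 and became 0.04 after quantile normalization; neither passed. It was among the dimmest 30% of genes. The coding sequences of the actins are much alike, and how far the probes of the ACTA2 and ACTG2 clusters tell them apart was not tested. Both of these genes have CArG forms in the windows printed above.

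ACTA2, at chr10:88935074-88991337, overlaps FAS over 27288 bases and the antisense RNA ACTA2-AS1 over 4901 bases. The strand that the clusters read and the probes' positions are not given in the sources used here, so signals from overlapping genes cannot be told apart. FAS rose by 1.05 ± 0.16 at 5 ng against 0 ng at 24 h (limma, adjusted p = 3.83e-05) and its difference at 3 ng was 0.40 (adjusted p = 0.0735). After quantile normalization FAS rose at both doses, by 1.40 at 5 ng and by 0.87 at 3 ng (adjusted p = 4.39e-12 and 7.62e-09). ACTA2-AS1, between 3.30 and 5.09 on all arrays, did not pass in either (-0.36 and -0.34). At 3 ng FAS stood at 9.43 at 12 h and at 8.97 at 24 h, whereas ACTA2 stood at 8.55 and 8.68; after quantile normalization these means were 9.40 and 9.16 for FAS and 8.51 and 8.88 for ACTA2. The part of FAS in the ACTA2 signal was not tested. MYLK, at chr3:123610049-123884332, overlaps MYLK-AS1 and 4 other non-coding genes, none of which had a named cluster.

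Of the tropomyosins, which wrap the actin filament, TPM2 fell as deposited and TPM1 did not pass. TPM2 read 9.44, 9.15, 9.22 and 9.68 on the uninduced arrays. It read 8.84, 8.97, 8.71 and 8.74 at 3 ng and 8.63, 8.83, 8.76 and 8.81 at 5 ng after 24 h. Every induced array of 24 h was below every uninduced array. As deposited TPM2 fell by 0.56 ± 0.15 at 3 ng (SE, n = 4 arrays in each group; limma with Benjamini-Hochberg, adjusted p = 0.00961) and by 0.61 ± 0.15 at 5 ng (adjusted p = 0.00358), or 1.53-fold lower. The fall depended on the scaling. After quantile normalization it was -0.10 at 3 ng and did not pass (adjusted p = 0.245), and -0.26 at 5 ng, which passed (adjusted p = 0.00239); with each array centred on its median neither passed (-0.33 and -0.34, adjusted p = 0.116 and 0.0778).

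At 12 h TPM2 read 8.83, 9.34, 8.86 and 9.19 with 3 ng and 8.68, 9.10, 8.88 and 9.04 with 5 ng. The 5 ng arrays lay below every uninduced array and the 3 ng arrays overlapped them. Against the uninduced cells of 24 h TPM2 fell by 0.45 ± 0.15 at 5 ng, at the edge of the threshold (limma, adjusted p = 0.0488), and the value at 3 ng was -0.32, which did not pass. The call at 5 ng and 12 h ended without array 1, 3 or 4 of that group (-0.37, -0.43 and -0.49) and without uninduced array 1 or 4 (-0.43 and -0.35), with the arrays centred on their medians (-0.33) and when only the groups compared were fitted (-0.45, adjusted p = 0.13). TPM1, the alpha-tropomyosin gene, lay between 8.57 and 9.18 in uninduced cells and between 8.16 and 8.58 at 5 ng and 24 h. Its difference of -0.40 ± 0.17 did not pass (limma, adjusted p = 0.0982) and was -0.02 after quantile normalization.

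**Figure D2:**
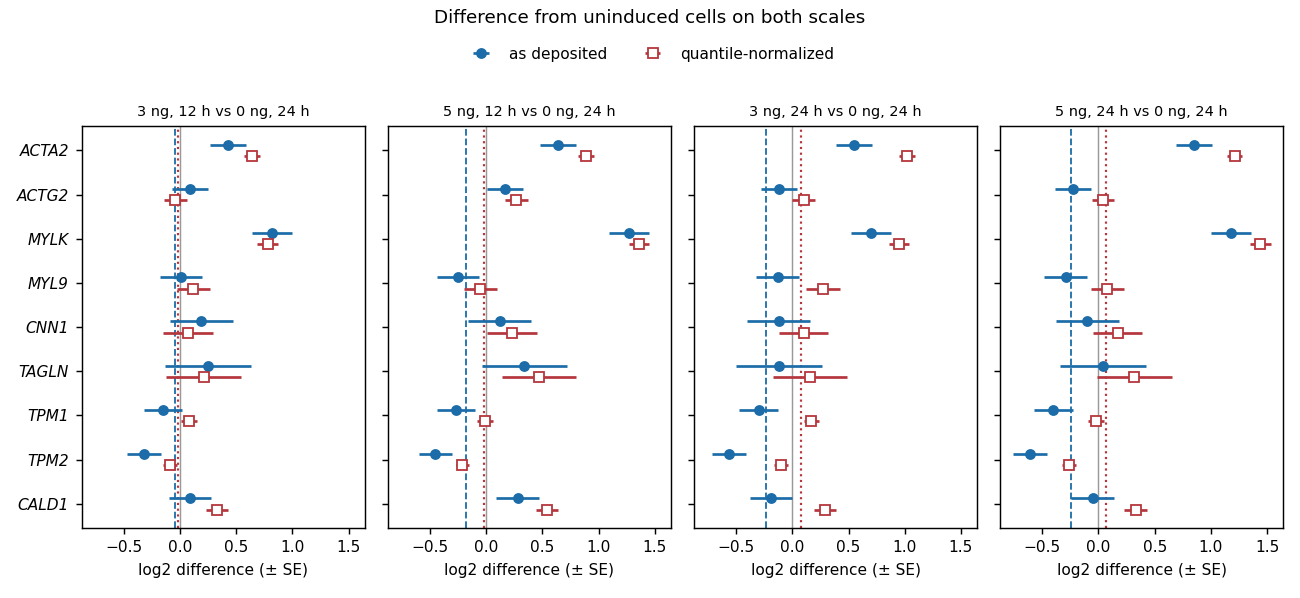
Log2 difference from uninduced cells of 24 h, with its standard error, for the 9 contractile genes at 3 ng and 5 ng and at 12 h and 24 h, 4 arrays in each group. Filled circles are the deposited values and open squares the quantile-normalized ones; the dashed and dotted lines mark the median of all genes on each scale. MYLK and ACTA2 lie to the right of both lines in all 4 panels, and the TPM2 fall is smaller after quantile normalization.

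Of the remaining regulators of the thin filament, none passed as deposited. CALD1 encodes caldesmon, which holds back the myosin motor along actin. It read 8.83, 8.69, 8.26 and 9.23 on the uninduced arrays and 8.85, 8.92, 9.10 and 9.25 at 5 ng and 12 h. These groups overlapped, with a difference of 0.28 ± 0.19 (limma, adjusted p = 0.382). After quantile normalization CALD1 rose by 0.54 there (adjusted p = 0.000718), by 0.33 at 3 ng and 12 h (adjusted p = 0.0387) and by 0.33 at 5 ng and 24 h (adjusted p = 0.0187). At 24 h the sign turned with the scaling, since the deposited differences were -0.19 at 3 ng and -0.05 at 5 ng; the quantile value of 0.29 at 3 ng sat at the threshold (adjusted p = 0.05 to the digits kept).

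CNN1, calponin, an actin-binding protein of differentiated smooth muscle, lay between 3.80 and 4.39 on the uninduced arrays and between 3.63 and 4.51 at 5 ng and 24 h. The groups overlapped and the difference was -0.10 ± 0.28, or 0.17 after quantile normalization; neither passed. One array of 3 ng and 24 h, number 1, read 3.03, while the other 3 of that group lay between 4.25 and 4.50.

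TAGLN, transgelin or SM22, an actin-binding protein of smooth muscle, passed in none of the comparisons and varied with the array number. Its 4 arrays, in the order of their numbers, read 4.82, 5.38, 5.69 and 6.27 in uninduced cells. They read 4.85, 6.19, 5.58 and 6.53 at 3 ng and 4.87, 6.09, 6.01 and 6.57 at 5 ng after 12 h. They read 4.71, 5.35, 5.68 and 5.93 at 3 ng and 5.15, 5.73, 5.48 and 5.95 at 5 ng after 24 h. In all 5 groups the array numbered 1 was the lowest and the array numbered 4 the highest, and the groups overlapped throughout. The difference between 5 ng and 0 ng at 24 h was 0.04 ± 0.38 with a 95% interval from -0.75 to 0.83, the widest of the 9 members.

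The array numbers accounted for 79.5% of the variance of TAGLN over the 20 arrays and for 54.6% of that of MYL9. The shares were 13.4% for ACTA2 and 7.41% for MYLK. For the other members they lay between 12.5% (ACTG2) and 32% (CALD1). Such shares were not computed over all genes. TAGLN averaged 4.88, 5.75, 5.69 and 6.25 over the 5 groups for numbers 1 to 4, while the array medians averaged 4.87, 4.95, 4.92 and 5.13. Only 4 of 18417 genes (0.0217%) had the same numbers lowest and highest in all 5 groups as deposited: TAGLN, CFB, LCN2 and MGAM. After quantile normalization 46 genes (0.25%) had such a pattern, whichever the numbers. In 3 of them number 1 was lowest and number 4 highest. CFB was among the 46 genes, and TAGLN, LCN2 and MGAM were not. CFB is a complement factor and LCN2 an iron-sequestering protein of the innate response; these genes were named after their values were seen. After quantile normalization the TAGLN array numbered 1 was still lowest in 5 of 5 groups, and number 4 highest in 4 of 5. What the numbers stand for is not given in the labels.

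**Figure D3:**
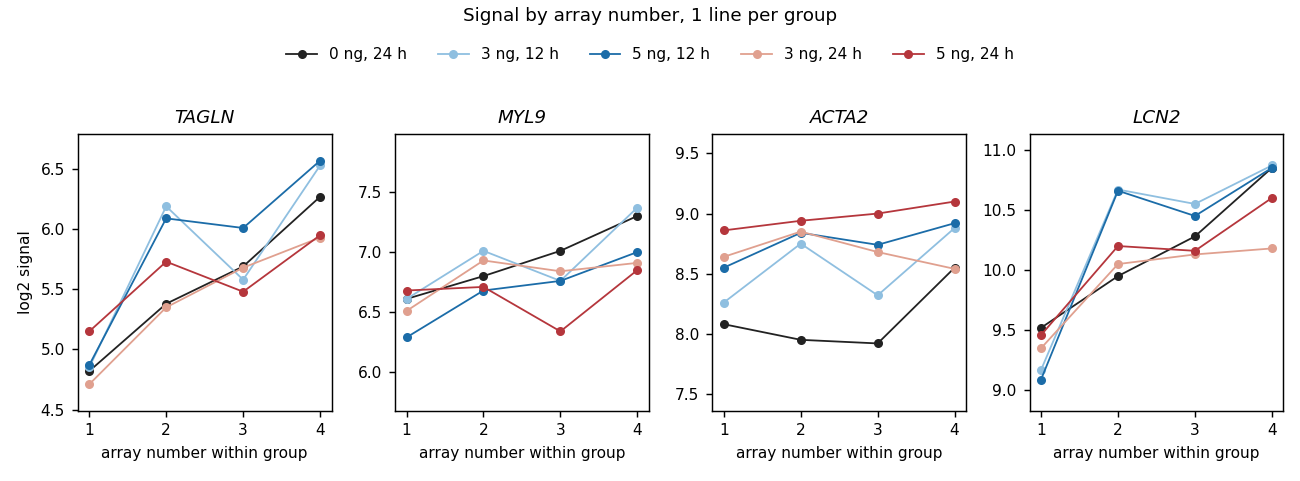
Log2 signal against array number within each group for TAGLN, MYL9, ACTA2 and LCN2, with 1 line for each of the 5 groups. All panels span the same number of log2 units. The TAGLN lines start lowest at number 1 and end highest at number 4 in all 5 groups, and the ACTA2 lines instead separate by group.

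The comparisons of both doses ask whether the contractile genes responded in steps. None of the 9 members passed for 5 ng against 3 ng at 24 h, against 2.54% of all genes called, and 1 member had an unadjusted p under 0.05, as did 1626 of 18417 genes. That member was MYLK, at 0.48 ± 0.18 with a 95% interval from 0.11 to 0.86 (limma, adjusted p = 0.271). After quantile normalization MYLK was the single member called, with a rise of 0.49 (adjusted p = 0.00162), while 5.96% of all genes rose. ACTA2 was 0.30 ± 0.16 higher at 5 ng and did not pass (limma, adjusted p = 0.704), nor did it after quantile normalization (0.19, adjusted p = 0.10). The deposited arrays of both doses did not overlap for 2 of the 9 members, ACTA2 and MYLK, against 11.2% of all genes.

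At 12 h none of the members passed for 5 ng against 3 ng, and 0.0217% of all genes did; 1 member, again MYLK, had an unadjusted p under 0.05 (0.45 ± 0.18; limma, adjusted p = 0.824), as did 1082 of 18417 genes. After quantile normalization MYLK rose by 0.59 (adjusted p = 0.002), the only member called, against 2.32% of all genes that rose. ACTA2 was at 0.21 ± 0.16 and did not pass.

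Both 12 h groups could be set only against uninduced cells of 24 h, so dose and time of culture cannot be told apart there. At 3 ng 1 member rose (MYLK), against 1.57% of all genes; after quantile normalization 3 rose (MYLK, ACTA2 and CALD1), against 6.61%. At 5 ng 2 members rose, MYLK and ACTA2, against 3.44% of all genes, and TPM2 fell, against 11.5%. After quantile normalization 3 rose and 1 fell at 5 ng, against 11.5% and 14.3% of all genes. The members' median was 0.09 at 3 ng and 0.17 at 5 ng, beside -0.04 and -0.18 for all genes.

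The comparisons of 24 h with 12 h at one dose ask what changed with time. No member was called at 3 ng, where 4.43% of all genes were and 0 members had an unadjusted p under 0.05 (limma). None was called at 5 ng, where 3.97% of all genes were. There 1 member, ACTG2, had an unadjusted p under 0.05 (limma), as did 2235 of 18417 genes. Its difference was -0.41 with arrays that did not overlap, against 11.4% of all genes. The quantile-normalized difference of ACTG2 was -0.24 (limma, adjusted p = 0.118), with arrays that overlapped. After quantile normalization ACTA2 was the single member called at each dose, higher at 24 h by 0.37 at 3 ng (adjusted p = 0.00122; 9.92% of all genes rose) and by 0.32 at 5 ng (adjusted p = 0.00376; 10.8% rose). As deposited ACTA2 was 0.12 and 0.21 higher, which did not pass. MYLK differed by -0.13 ± 0.18 and -0.09 ± 0.18 between the times, or by 0.17 and 0.08 after quantile normalization, and did not pass on either scale. The interaction of dose and time was called for none of the members and for 0% of all genes (limma, 391 genes and 0 members at an unadjusted p under 0.05).

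The other genes of the pathway were taken from lists of smooth muscle, actomyosin and SRF genes. Of 17 other smooth muscle genes, 1 rose and 2 fell at 5 ng against 0 ng at 24 h as deposited, and 3 rose and 1 fell after quantile normalization. SMTN, smoothelin of contractile smooth muscle, rose by 0.38 and by 0.76 on the 2 scales, CNN2 fell by 0.70 and by 0.36, and PDLIM7 fell by 0.41 as deposited only. MYH11 was at -0.16, and at 0.12 after quantile normalization, and did not pass. Of 17 measured non-muscle actomyosin genes, which build stress fibres in most cells, 0 rose and 6 fell (1 and 5 after quantile normalization). The largest of these falls were in MYH10, the non-muscle myosin IIB heavy chain (-1.19 ± 0.18), TPM4 (-0.70 ± 0.14) and the adhesion protein gene VCL (-0.70 ± 0.14).

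Among 17 measured genes that act on the myosin light chain beside MYLK, 1 rose and 5 fell (4 and 3 after quantile normalization). DAPK1, death-associated protein kinase, rose by 1.11 ± 0.24. CIT, citron kinase, a kinase of cytokinesis, fell by 3.22 ± 0.21, and the kinase gene ROCK2 fell by 0.88 ± 0.17. After quantile normalization DAPK1 rose by 1.38, and CIT and ROCK2 fell by 2.82 and 0.47. Kinases on this list thus moved in both directions, and the light chain gene MYL9 did not pass.

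SRF and its partners and regulators were followed next. Of 12 measured SRF and myocardin-family regulators, 0 rose and 8 fell at 5 ng and 24 h as deposited, with a median of -0.50 beside -0.24 for all genes; after quantile normalization 2 rose and 6 fell, with a median of -0.11 beside 0.07. SRF fell by 0.38 (limma, adjusted p = 0.0444), which became 0.02 after quantile normalization. MRTFB, an actin-sensing partner of SRF, fell by 0.60, and by 0.22 after quantile normalization. MYOCD, myocardin, the muscle partner of SRF, was at 1.34 and 1.65 in both groups and did not pass, and MRTFA was not analysed here. WWTR1, the Hippo pathway coactivator TAZ, fell by 1.52 ± 0.17. Of 15 measured SRF and MRTF targets outside the members, 0 rose and 5 fell (4 and 5 after quantile normalization), among them CNN2, TPM4 and VCL, which the lists above also hold.

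Of 19 measured genes of the TGF-beta pathway, which can raise ACTA2 in many cells, 1 rose and 7 fell (7 and 5 after quantile normalization). The receptor genes moved in opposite directions, with TGFBR1 up by 0.83 ± 0.16 and TGFBR2 down by 0.96 ± 0.14, and the target ID1 fell by 1.19 ± 0.21. These list counts, and those of the cell type markers, are descriptions beside the background of 4.52% of all genes rising and 23.5% falling as deposited, and 20.6% and 17.2% after quantile normalization.

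**Figure D4:**
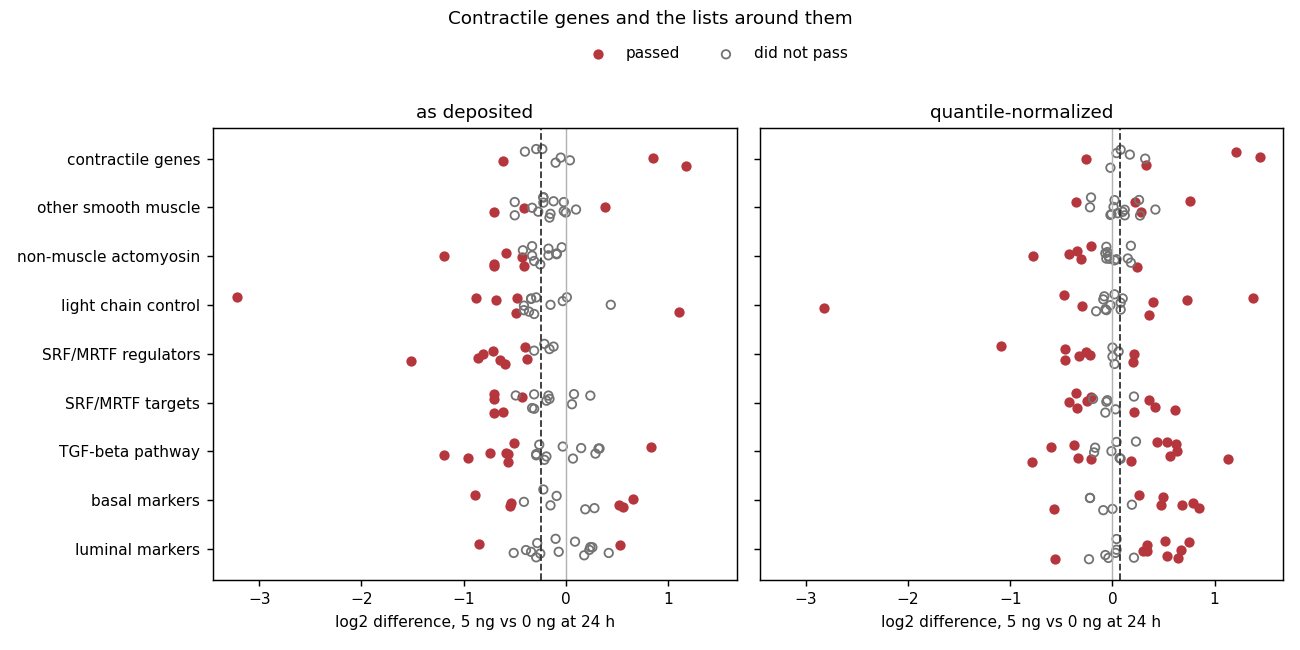
Log2 difference between 5 ng and 0 ng at 24 h for each gene of 9 groups of genes, as deposited on the left and after quantile normalization on the right. Filled points passed the adjusted p of 0.05, open points did not, and the dashed line is the median of all genes. The horizontal place of a point is its log2 difference. The vertical scatter within a group has no meaning and only keeps the points apart. MYLK and ACTA2 are the 2 points furthest right among the contractile genes.

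Markers of the cell types that could carry contractile genes were followed beside them. Of 12 measured basal markers 3 rose and 3 fell at 5 ng and 24 h, against 4.52% and 23.5% of all genes. After quantile normalization 6 rose and 1 fell, against 20.6% and 17.2% of all genes. KRT5 was up by 0.66 and KRT14 by 0.56, and the Notch ligand gene JAG1 was down by 0.89, as deposited. Of 16 luminal markers 1 rose and 1 fell (8 and 1 after quantile normalization), KRT8 up by 0.53 and EPCAM down by 0.85. The mean log2 signal of the basal list per array ranged from 9.95 to 10.32 in uninduced cells and from 9.99 to 10.09 at 5 ng and 24 h, and that of the luminal list from 6.27 to 6.69 and from 6.20 to 6.55. The part of the basal keratins in the rise of MYLK and ACTA2 was not tested.

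Of 12 fibroblast markers 0 rose and 0 fell as deposited, and 1 rose after quantile normalization; their mean per array ranged from 3.69 to 3.99 at 0 ng and from 3.28 to 3.77 at 5 ng. Of 10 vascular smooth muscle markers 0 rose and 1, RGS5, fell as deposited, whereas 3 rose and 0 fell after quantile normalization; the deposited means ranged from 3.33 to 3.79 and from 2.97 to 3.55. Of 8 endothelial markers 0 rose and 1, KDR, fell as deposited, whereas 2 rose and 0 fell after quantile normalization; the deposited means ranged from 3.25 to 3.56 and from 2.76 to 3.37. Some genes of these lists and of the immune one lay below the array median on all 20 arrays. LUM was at most -0.19, DCN at most 0.84, PTPRC at most 0.03, PECAM1 at most 2.08 and RGS5 at most 2.80. Others did not. DES, on the vascular smooth muscle list, lay between 5.52 and 6.23, with array medians between 4.54 and 5.54. CD14 and CSF1R averaged 6.48 and 5.87 at 0 ng, and ITGAM averaged 6.13 at 5 ng and 24 h. Of 7 measured immune markers 1 rose and 2 fell (2 and 2 after quantile normalization), the deposited calls being ITGAM up by 1.10 and CD14 and CSF1R down by 1.43 and 0.99, and the list's mean per array ranged from 4.03 to 4.41 and from 3.63 to 4.16.

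The genes whose pattern over the 5 group means was nearest to that of ACTA2 were CBLB, GSTM1, SERPINB3 and CPEB4, at distances of 0.05, 0.09, 0.09 and 0.10. The distance is the Euclidean one between centred group means, in log2 units, over 5 groups. After quantile normalization these distances were 0.25, 0.08, 0.28 and 0.10, which placed the 4 genes at ranks 74, 2, 95 and 3 by distance. Nearest to MYLK were ABCC2, HECW2, KEL and ANK3, at 0.10, 0.11, 0.12 and 0.13, and at 0.29, 0.11, 0.13 and 0.11 after quantile normalization. By the latter their ranks were 83, 1, 5 and 3. No other member was among these nearest genes by construction, since members were left out.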

How the data were processed

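Total RNA from 20 samples was labelled with biotin and hybridised to Affymetrix arrays, 1 sample each. The authors deposited log2 signals, 1 per transcript cluster and array; the log base is read from their range (-6.37 to 14.36). The tools listed are limma, GCRMA, GCOS and Affymetrix Power Tools, without versions or roles, per the submitters' processing notes; steps that scaled the arrays are not given in the sources used here. Of 33297 clusters, 19460 had 1 symbol, and the brightest per gene gave 18417 genes. limma 3.58.1 (R 4.3.3) fitted 1 mean for each of 5 groups (15 residual degrees of freedom), with eBayes and Benjamini-Hochberg adjustment over all genes at 0.05. Precision is limited by the 4 arrays per group. The script was tested on simulated data. The members and gene lists were chosen with earlier results of these data known. Named were all members, up to 3 genes per list with the largest called difference at 5 ng against 0 ng at 24 h, CDKN1A and MDM2 as the transgene check, the SRF partners, and the 4 nearest genes to ACTA2 and MYLK. Alternatives were quantile normalization, median centring, a filter on the dimmest 30% of genes, eBayes with trend and robust options, a replicate block, only the groups compared, and each array left out. MDM2 rose by 0.47 at 5 ng and was at 0.18 at 3 ng, where it did not pass (0.62 and 0.48 after quantile normalization, both past the threshold).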

Additional observations from a re-analysis of the deposited data

Results flagged for a closer look

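One of the 45 sets of 4 arrays (9 genes in 5 groups) held an array far from the others by Dixon's criterion (critical value 0.829), which chance reaches in about 1 set in 20. It was CNN1 at 3 ng and 24 h, where array 1 read 3.03 and the other 3 lay between 4.25 and 4.50. CNN1 passed in none of the 9 comparisons with that array in the fit.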

How the results depend on the processing

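Quantile normalization turned the sign of CALD1 to 0.29 at 3 ng and 0.33 at 5 ng against 0 ng at 24 h. It raised the members called to 1 for 5 ng against 3 ng at either time and for 24 h against 12 h at each dose, and to 3 for 3 ng at 12 h against 0 ng; the cause was not tested. Median centring also gave 1 for 5 ng against 3 ng at either time. Fitting only the groups compared gave 0 for 3 ng at 12 h against 0 ng, with fewer arrays behind the spread. With each array left out in turn, members called ranged from 2 to 3 for 3 ng against 0 ng, from 3 to 3 for 5 ng against 0 ng, from 0 to 1 for 3 ng at 12 h and from 2 to 3 for 5 ng at 12 h; the other comparisons stayed at 0. Of 720 differences of members with a single array left out, 712 kept their side of the threshold and 8 lost the call. Signs were compared only where either fit made a call, so uncalled differences could turn sign without being counted. TPM1 passed at 5 ng against 0 ng at 24 h with the trend and robust options (-0.40, limma, adjusted p = 0.0482). The labels do not say whether the array numbers pair the samples, and the main fit did not pair them. With the group means removed, 13 of 40 same-numbered pairs of arrays correlated above 0.1. Their median correlation was 0.0585, beside -0.0238 for differently numbered arrays of different groups. By the same measure 10 of 20 arrays correlated best with their own number, and the count to be expected without pairing was not computed. A replicate block changed no member call; all genes called went from 4504 to 4796 for 3 ng and from 5166 to 5398 for 5 ng against 0 ng at 24 h, and the standard error of TAGLN from 0.38 to 0.17. The arrays' number limits the precision, and ACTG2, among the dimmest genes, has no value under the filter on dim genes.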

Other observations

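As deposited, MGAM, CFB and LCN2 shared the array-number pattern of TAGLN. They averaged 4.51, 7.17 and 9.32 over the arrays numbered 1 and 5.49, 8.79 and 10.67 over those numbered 4. After quantile normalization these means were 4.62, 7.25 and 9.39 for number 1 and 5.33, 8.70 and 10.59 for number 4. The array number accounted for 74.7%, 74.3% and 82.4% of their variance over the 20 arrays.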
